A study of Homo sapiens with 4 samples.

Results

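The genes described here are 10 early response genes of the AP-1 and early growth response group, taken by name from a count table of 40205 gene symbols. They are the FOS family (FOS, FOSB, FOSL1 and FOSL2), the JUN family (JUN, JUNB and JUND), the related factor ATF3, the zinc finger factor EGR1 and the survival gene IER3. All 10 passed the filter on low counts that left 16120 genes for testing. The study measured RNA in A549, a human lung adenocarcinoma cell line, by Ion Proton sequencing. Cells were grown in RPMI medium with fetal bovine serum and antibiotics and were harvested 24 h after siRNA transfection with Lipofectamine iMAX. Control 1 and control 2 are the libraries that received negative control siRNA. In the other 2, named Knockdown-670 and Knockdown-732 by numbers that the labels do not explain, it targeted the long non-coding RNA SBF2-AS1. The labels do not say whether those 2 libraries received the same siRNA. All 4 libraries come from the same cell line, and nothing in the labels says that they were separate cultures, so the p-values reflect the spread between these libraries alone, and that spread may be technical.

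AP-1 is a dimer of basic leucine zipper proteins. JUN proteins pair with each other or with FOS proteins, whereas FOS proteins need a JUN partner to bind DNA, so the mixture of family members in a cell sets which dimers can form. FOS, JUN and EGR1 are textbook immediate early genes: growth factors and stress switch them on within minutes through MAP kinases, serum response factor and ternary complex factors, and the burst is brief. FOSL1 and FOSL2 come later and last longer, and FOSL1 is known as a RAS and ERK responsive member in carcinoma cells.

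The libraries held 12149767 to 12938143 counts. The targeted SBF2-AS1 had 57 and 79 counts in the controls against 15 and 18 in Knockdown-670 and Knockdown-732 (log2 fold change -1.94, SE 0.30, adjusted p = 3.19e-05 by edgeR). SBF2-AS1 overlaps SBF2 and AC026250.1, both on the opposite strand. No source used here says whether strand was used in counting, and any exchange of reads between these genes was not tested. Levels are given as CPM, counts scaled to the TMM library size. The 10 epithelial and A549 markers checked were all expressed, with summed levels of 16450 and 17070 CPM in the controls and 10460 and 10700 CPM in the knockdown. Of these markers 7 fell and 1 rose (median log2 fold change -0.55), beside 22.8% and 23.5% of all tested genes. Their part in the results below was not tested. The 8 immune markers summed to between 14.7 and 17.9 CPM per library, with HLA-DRA, CD3E and MS4A1 at 0 counts in all 4. Fibroblast markers summed to 10.3 to 14.3 CPM, endothelial markers to at most 0.831 CPM and erythroid markers to at most 0.155 CPM. In such bulk RNA, fewer cells that express a gene and less of its RNA per cell cannot be told apart.

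Promoter sequence is shown for JUN and FOSB, which rose in the counts below, and for EGR1, which fell. For FOSB and EGR1 it is the 250 bases before the RefSeq start site (GRCh38.p14), at chr19:45467746-45467995 on the + strand for FOSB and chr5:138465229-138465478 on the + strand for EGR1. Capitals mark the matches: a TGANNTCA site in JUN, and both serum response elements (CArG boxes) found in this stretch of EGR1. For JUN, whose GENCODE start lies further upstream, only 30 bases around the site are shown, at chr1:58784096-58784125 on the - strand.
JUN: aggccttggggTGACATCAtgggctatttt
FOSB: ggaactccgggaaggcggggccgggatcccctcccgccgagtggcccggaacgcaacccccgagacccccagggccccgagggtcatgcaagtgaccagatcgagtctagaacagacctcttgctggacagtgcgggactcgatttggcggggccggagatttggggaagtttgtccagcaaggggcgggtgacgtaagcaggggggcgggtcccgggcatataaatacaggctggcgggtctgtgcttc
EGR1: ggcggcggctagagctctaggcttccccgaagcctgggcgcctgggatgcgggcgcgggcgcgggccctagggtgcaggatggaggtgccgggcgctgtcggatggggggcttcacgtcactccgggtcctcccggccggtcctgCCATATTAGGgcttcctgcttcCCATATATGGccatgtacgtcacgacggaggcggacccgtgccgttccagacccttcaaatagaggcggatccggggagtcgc

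RefSeq promoter windows, from 250 bases before to 50 bases after a start site, were found for 8 of the 10 genes, in 9 windows because ATF3 has a pair. FOSL1 and IER3 had no window, so no motif was searched for in these genes. The 9 windows were searched on both strands. Within these windows EGR1 was the only one of the 8 with a serum response element. It has 2 there, starting 105 and 83 bases before its start, whereas 1.29% of 35116 promoters hold one. Sequence beyond the windows was not searched, so a gene with no match here may have such an element elsewhere. The AP-1 consensus TGANTCA, present in 7.71% of promoters, was found in FOSL2, at bases 5 to 11 counted from the RefSeq start. The GENCODE start of FOSL2 lies further upstream, so by that annotation the site is further inside the gene. TGACGTCA, the cyclic AMP response element, was found in JUND, 200 bases before the start, and is in 1.85% of promoters. The looser TGANNTCA, which contains TGACGTCA and was added after the sequences had been seen, is in 11.5% of promoters and was found in JUN at 67 to 60 bases before the start, in ATF3 at 123 to 116 bases before one of its starts, and in JUND. JUN and ATF3 hold it as the same letters, TGACATCA. The GENCODE start of JUN lies upstream of its site, so by that annotation the JUN site is inside the gene. Searches for GCGGGGGCG (5.07% of promoters), TTTCGCGC (0.515%), TTTGGCGC (0.652%), an NF-kB site (11.3%) and an interferon-stimulated response element (3.57%) gave no match in the 9 windows. A match is a run of letters, and binding was not measured.

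**Figure D1:**
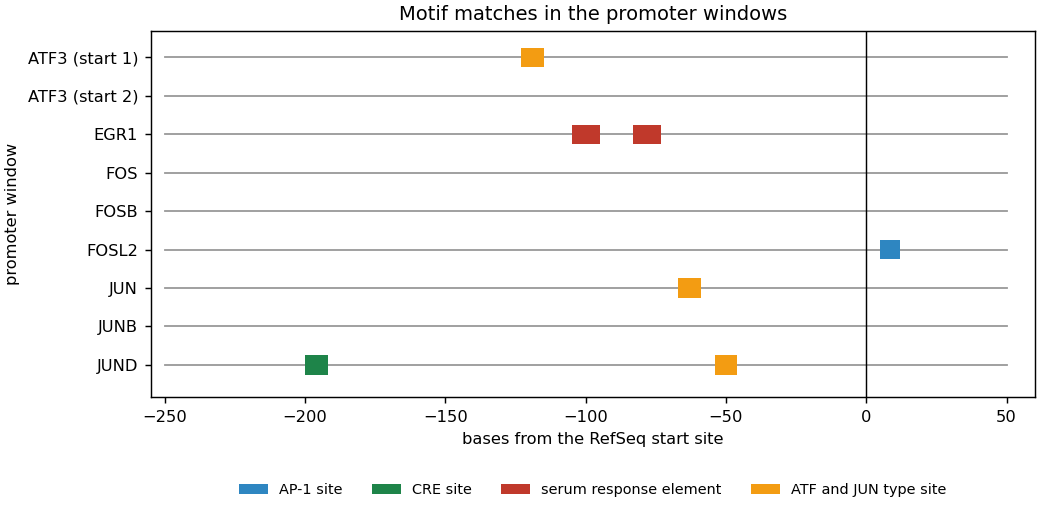
Matches to the searched motifs in the 9 promoter windows of 8 genes, by distance in bases from the RefSeq start site (vertical line). Both serum response elements found in these windows are in EGR1. JUN, ATF3 and JUND carry TGANNTCA sites (orange), and the green TGACGTCA of JUND is also one. FOSL2 carries an AP-1 site just after its RefSeq start.

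The study set the SBF2-AS1 siRNA libraries against the control ones. Among the 10 genes, 8 were called by the quasi-likelihood test of edgeR (adjusted p under 0.05), as were 46.3% of all genes tested. FOSB, FOSL1, FOSL2, JUN and IER3 rose, 5 of 10 against 23.5% of all genes. EGR1, JUND and ATF3 fell, 3 of 10 against 22.8%. At least a 2-fold rise was seen for FOSB, FOSL1 and JUN, against 5.57% of all genes. The median log2 fold change of the 10 was 0.27 and that of all tested genes was -0.002. The median size of the change, whatever its sign, was 0.44 for the 10 and 0.35 for all tested genes. Both knockdown libraries lay above both controls for 6 of the genes (36.4% of all genes) and below both for 3 (36.2%).

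**Figure D2:**
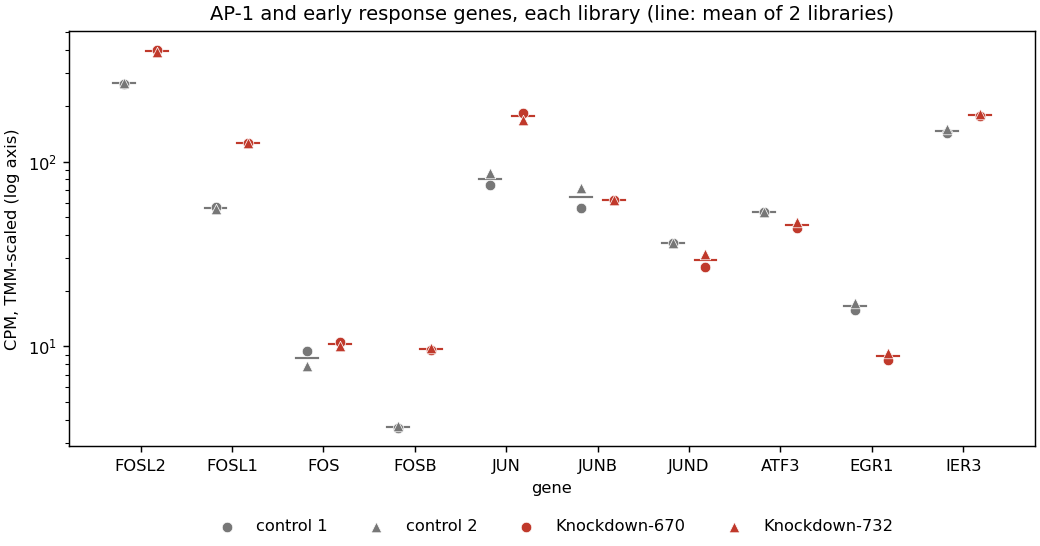
Level of each of the 10 genes in each library, in TMM-scaled CPM on a log axis, with controls in grey, knockdown in red and a line at the mean of 2 libraries. FOSL1, FOSB, FOSL2 and JUN are clearly higher in both knockdown libraries, EGR1 is lower in both, and the JUNB controls lie on either side of the knockdown pair.

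FOSL1 (FRA1), the RAS responsive FOS family member, stood at 56.7 and 55.2 CPM in controls 1 and 2 and at 127 and 126 CPM in Knockdown-670 and Knockdown-732. The groups were far apart and each pair nearly equal. The rise was 2.26-fold (log2 1.17, SE 0.07, adjusted p = 4.94e-10), and against the mean control the libraries' own rises were 1.18 and 1.17 on the log2 scale. FOSL1 lies on chromosome 11 from 65892049 to 65900573 on the - strand (GENCODE v29, GRCh38), with no annotated gene overlapping it. The pseudogene FOSL1P1 had 8, 4, 13 and 13 counts in the same order of libraries, against 734, 731, 1492 and 1599 for FOSL1. How reads were divided between them was not tested.

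FOSL2 (FRA2), a close relative of FOSL1, was the most counted of the 10 genes, with 261 and 267 CPM in the controls and 401 and 394 CPM in Knockdown-670 and Knockdown-732. Again the groups did not overlap. It rose 1.5-fold (log2 0.59, SE 0.07, adjusted p = 8.08e-07). With an offset for the GC content and length of the transcript the rise was smaller, 0.36 on the log2 scale, and still passed (adjusted p = 3.53e-05). FOSL2 lies on chromosome 2 from 28392448 to 28417312 on the + strand, with the antisense gene FLJ31356 across its start, which had only 4 to 15 counts per library.

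FOSB, an inducible member of the family, was scarce, with 47 and 49 counts for the controls against 112 and 124 for Knockdown-670 and Knockdown-732. In CPM these were 3.63 and 3.70 against 9.51 and 9.77. Exact Poisson intervals (95%, for counting error alone) reached up to 4.90 CPM in the controls and started at 7.83 CPM in the knockdown, so the groups were apart by more than counting error. The fitted rise of 2.62-fold was the largest of the 10 (log2 1.39, SE 0.20, adjusted p = 1.23e-05), and 4.95% of all tested genes changed more. FOSB lies on chromosome 19 from 45467995 to 45475179 on the + strand, inside the span of ERCC1, a DNA repair gene on the other strand. ERCC1 had 123 ± 1.31 CPM in the controls (SD, n = 2) and 151 ± 3.48 CPM in the knockdown (SD, n = 2), a log2 fold change of 0.29. No source used here says whether strand was used in counting, and any exchange of reads between FOSB and ERCC1 was not tested.

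FOS, the founding member and a classical marker of acute stimulation, was counted 122 and 104 times in controls 1 and 2, 125 times in Knockdown-670 and 128 times in Knockdown-732, which is 9.43, 7.86, 10.6 and 10.1 CPM. The knockdown libraries were a little above both controls, but the Poisson intervals overlapped: that of the higher control ran from 7.83 to 11.3 CPM, while those of the knockdown libraries began at 8.83 and 8.41 CPM. The log2 fold change of 0.26 (SE 0.17) did not pass (adjusted p = 0.217). Without control 1 it was 0.39 and without control 2 it was 0.13, and neither passed (adjusted p = 0.163 and 0.669). FOS lies on chromosome 14 from 75278774 to 75282230. Whether its change differed from that of FOSL1 was not tested.

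JUN, the main DNA-binding partner of the FOS proteins, had 74.3 and 86.3 CPM in the controls and 183 and 168 CPM in Knockdown-670 and Knockdown-732. Both knockdown libraries were far above both controls, which differed from each other by less. JUN rose 2.19-fold (log2 1.13, SE 0.08, adjusted p = 2.86e-09), and by library the rise was 1.19 and 1.07 on the log2 scale. It is a gene of 1 exon on chromosome 1, from 58780788 to 58784327 on the - strand, with no annotated gene overlapping it.

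JUNB, a weaker activator that can oppose JUN in growth control, did not follow it. The controls were 56.0 and 72.0 CPM and the knockdown libraries 61.8 and 62.1 CPM. Both knockdown libraries lay between the controls. The gap between the controls (0.36 on the log2 scale) was the largest within either group among the 10 genes. The log2 fold change was -0.05 (SE 0.10, adjusted p = 0.736), and without control 2 it turned to 0.14 and again did not pass (adjusted p = 0.301). It was -0.22 without control 1 and -0.23 with the GC and length offset. HOOK2, a microtubule adaptor gene whose span covers JUNB on the opposite strand of chromosome 19, went from 15.9 ± 2.55 to 26.4 ± 1.84 CPM (SD, n = 2 each), and any exchange of reads between the genes was not tested.

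JUND, the family member that is expressed most steadily in resting cells, stood at 36.1 and 36.2 CPM in the controls and at 27.0 and 31.6 CPM in Knockdown-670 and Knockdown-732. The controls were nearly equal, the knockdown libraries were lower, and Knockdown-670 was the lowest. The log2 fold change was -0.30 (SE 0.11, adjusted p = 0.030). The call was lost in DESeq2 (adjusted p = 0.118), which called 32.9% of all genes, and without control 1 (0.076), control 2 (0.0634) or Knockdown-670 (0.267, log2 -0.20). With the GC and length offset JUND stood lower, at -0.54 (adjusted p = 0.000242). It is the most GC-rich of the 10 transcripts, at 69.7%.

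ATF3, a stress-induced repressor that pairs with JUN proteins, had 53.0 and 53.2 CPM in the controls and 43.8 and 46.9 CPM in Knockdown-670 and Knockdown-732. The groups did not overlap, but the difference was small: log2 -0.23 (SE 0.09, adjusted p = 0.040). This call was also lost in DESeq2 (adjusted p = 0.161), with the GC and length offset (0.0844), with upper-quartile scaling (0.0503) and without control 1 (0.103), control 2 (0.101) or Knockdown-670 (0.219). ATF3 spans 212565334 to 212620777 on chromosome 1, on the + strand.

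EGR1, the zinc finger factor that growth signals switch on through serum response elements, fell. Counts were 203 and 227 for the controls against 99 and 117 for Knockdown-670 and Knockdown-732, or 15.7 and 17.2 against 8.41 and 9.22 CPM. Both knockdown libraries were well below both controls. The Poisson intervals were at or above 13.6 CPM in the controls and ended at 10.2 and 11.1 CPM in the knockdown. The log2 fold change was -0.90 (SE 0.15, adjusted p = 7.57e-05), and the mean CPM fell by 46.4%. By library the change was -0.97 (Knockdown-670) and -0.83 (Knockdown-732). EGR1 lies on chromosome 5 from 138465490 to 138469315 on the + strand, and the stretch with both serum response elements found here is printed above.

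IER3 (IEX-1), an early gene induced by NF-kB and ERK that modulates cell survival, had 143 and 149 CPM in the controls and 176 and 181 CPM in Knockdown-670 and Knockdown-732. Every knockdown value was above every control value. The rise was 1.22-fold (log2 0.29, SE 0.07, adjusted p = 0.0022). Tested against a 1.2-fold change in place of no change, a rule that 29% of all genes passed, IER3 did not pass (adjusted p = 0.332), while FOSB, FOSL1, FOSL2, JUN and EGR1 did. IER3 lies on chromosome 6 from 30743199 to 30744554 on the - strand, with IER3-AS1 across its 3' end.

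**Figure D3:**
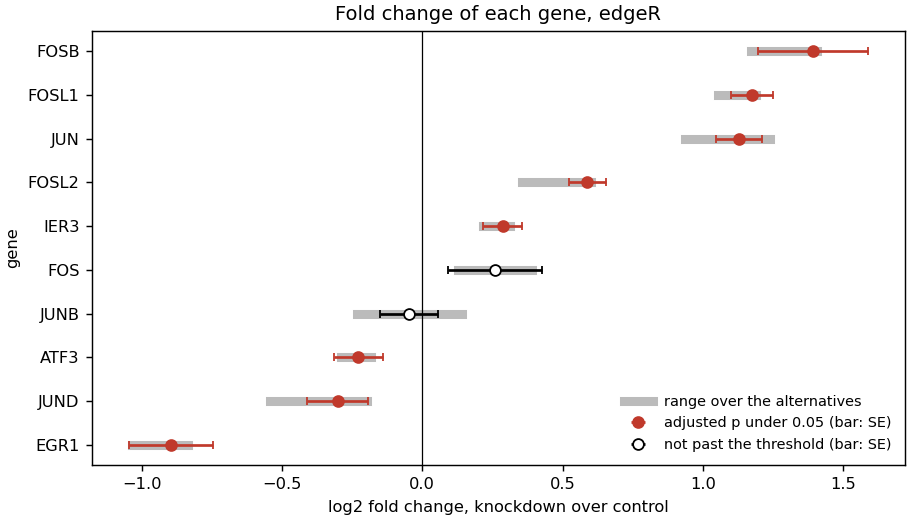
Log2 fold change of knockdown over control for each gene (point, with SE), and its range over 15 alternative settings (grey). FOSB, FOSL1 and JUN lie near or above 1 and EGR1 near -0.9, FOS and JUNB (open points) did not pass, and the range of JUNB crosses 0.

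To compare levels between genes, CPM was divided by the length in kb of the longest annotated transcript. In the controls IER3 was first at 106 and 111 CPM per kb, followed by FOSL2 (38.95 and 39.87), JUNB (30.8 and 39.6), FOSL1 (34 and 33.1), ATF3 (26.1 and 26.2), JUN (21.0 and 24.4), JUND (19.4 and 19.4), EGR1 (5.00 and 5.47), FOS (4.37 and 3.64) and FOSB (0.963 and 0.981). FOSL1 lay between the JUNB controls. FOSL2 was above JUNB in each control, though by little in control 2 (39.87 against 39.57), and the order of these genes was not tested. In the knockdown FOSL1 was second at 75.9 and 75.5 CPM per kb, and JUN moved from the sixth place to the fourth, above JUNB. EGR1 dropped below FOS, with 2.68 and 2.94 against 4.92 and 4.67 CPM per kb. FOSB was last in both groups. With the median transcript length of each gene, an alternative added after the data were seen, FOS was already above EGR1 in the controls (7.03 and 5.86 against 5.00 and 5.47 CPM per kb), so that change of order rests on the length used. The same length put ATF3 (38.2 and 38.4 CPM per kb) within the range of JUNB in the controls, and put FOSB (2.76 and 2.83) within the range of EGR1 in the knockdown. The move of JUN from the sixth place to the fourth was found with both lengths.

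Within the FOS family, FOSL1 made up 43.4 and 42.7% of the summed CPM per kb in the controls and 53.0 and 53.4% in Knockdown-670 and Knockdown-732, while FOSL2 went from 49.7 and 51.4% to 41.7 and 41.5%. The leading FOS family transcript was thus FOSL2 in the controls and FOSL1 in the knockdown. With the median transcript length of each gene in place of the longest, FOSL1 led in control 1 as well (46.5 against 44.8%), so the order in the controls rests on the length used. With the longest transcript, FOS made up at most 5.58% and FOSB at most 1.83% of the family in any library, and with the median length FOS reached 7.56%. In the JUN family, JUN went from 29.5 and 29.2% to 51.7 and 48.2%, JUNB from 43.2 and 47.5% to 33.9 and 34.6%, and JUND from 27.3 and 23.3% to 14.5 and 17.2%. The summed FOS family level went from 78.3 and 77.6 to 143 and 141 CPM per kb, and the summed JUN family level 71.1 and 83.4 against 100.3 and 98.6. These shares are descriptions of RNA in the same libraries and were not tested.

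**Figure D4:**
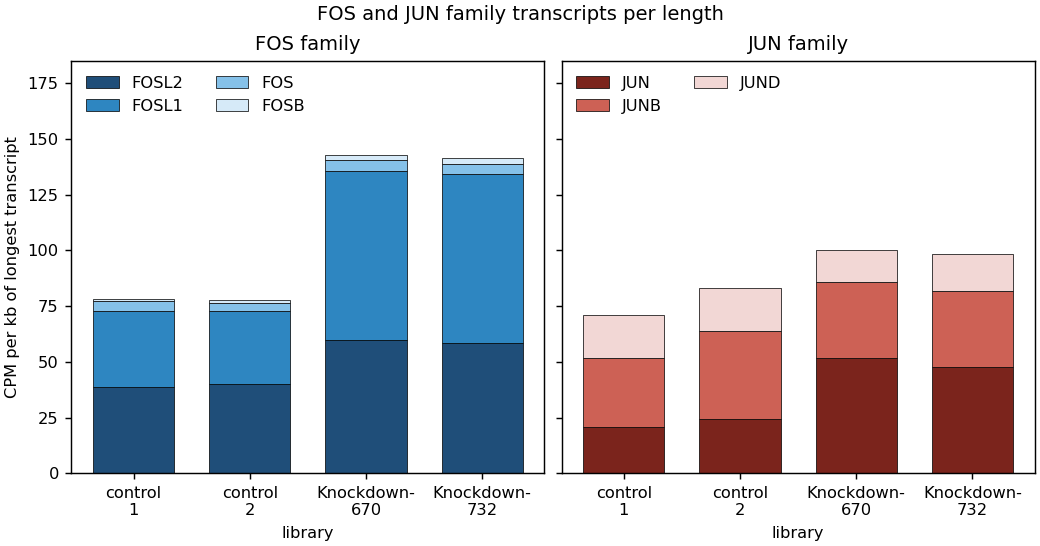
Summed level of the FOS family (left) and JUN family (right) in each library, in CPM per kb of the longest transcript, split by gene. The FOS family bar is 143 and 141 in the knockdown against 78.3 and 77.6 in the controls, and FOSL1 and JUN are the largest parts in the knockdown.

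By a rule that takes the called gene with the largest change, FOSB, and asks which of 11904 other genes of at least 5 mean CPM had the most similar centred log2(CPM + 1) profile, the nearest were ANKRD24, MIB2 and OGFR, at Euclidean distances of 0.027, 0.046 and 0.046. ANKRD24 went from 4.17 and 4.38 CPM to 10.8 and 11.1 CPM. With 4 libraries in 2 groups, any gene that rose by a like amount comes close.

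Other bZIP genes of the AP-1 and CREB/ATF kind moved both ways: of 15 tested, 5 rose, 5 fell and 5 did not pass, with a median log2 fold change of 0.06. Over all tested genes 23.5% rose and 22.8% fell. BATF2, an interferon-inducible partner of JUN proteins, had the clearest rise, from 4.48 and 4.69 to 36.0 and 36.9 CPM (7.94-fold, log2 2.99, SE 0.14, adjusted p = 1.25e-11). MAF, a larger relative, went from 0 and 1 counts to 15 in Knockdown-670 and 21 in Knockdown-732. CREM, a cyclic AMP responsive factor, fell by 0.62 on the log2 scale (by 0.33 with the GC and length offset) and ATF6, a sensor of unfolded proteins, fell by 0.54. The 5 that rose became 2 in DESeq2 and 3 without Knockdown-670, with library size only and with the GC and length offset. Of the EGR relatives and their NAB corepressors only NAB1 and NAB2 had enough counts to test: NAB1 fell by 0.35 on the log2 scale and NAB2 did not pass (log2 0.19, adjusted p = 0.106), except without control 2 (0.0483). The NAB1 call was lost with the GC and length offset (log2 -0.17, adjusted p = 0.0818) and with glmTreat (0.137).

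A list of 30 other immediate early genes had 17 that rose, 4 that fell and 9 that did not pass, with a median of 0.23, beside 23.5% of all tested genes that rose and 22.8% that fell. With glmTreat the 17 became 11. KLF6, a zinc finger factor of injury responses, went from 116 and 128 to 221 and 211 CPM (log2 0.83, adjusted p = 3.60e-08). MCL1, a survival protein of the BCL2 family, rose by 0.73 on the log2 scale. CYR61, a matricellular target of YAP and serum response factor, rose by 0.70, and ZFP36L1, which promotes decay of AU-rich mRNAs, rose by 0.66. The 4 that fell were ZFP36L2 (log2 -1.10), NR4A1 (-0.57), GADD45B (-0.45) and IER5L (-0.40), picked here with their values known. The IER5L call was lost without Knockdown-732 (log2 -0.23, adjusted p = 0.115), and its value was -0.61 without Knockdown-670 and -0.66 with the GC and length offset. EGR1 was thus not the only early gene lower in the knockdown.

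Of the serum response factor and its partners, SRF itself rose, from 37.3 and 42.8 to 62.5 and 57.8 CPM (log2 0.58, SE 0.09, adjusted p = 5.09e-05). With the GC and length offset the rise was 0.29 (adjusted p = 0.0103). MKL1, a coactivator of SRF that responds to actin, had a log2 fold change of 0.20 (adjusted p = 0.0436), lost in DESeq2 (0.146), with library size only (0.17) and without control 1 (0.172), control 2 (0.0506) or Knockdown-732 (0.439). The GC and length offset turned its sign (log2 -0.11, adjusted p = 0.265). ELK3, a ternary complex factor that can repress SRF targets, fell from 61.4 and 65.2 to 39.4 and 39.2 CPM (log2 -0.69). ELK1, ELK4 and MKL2 did not pass, though MKL2 did without control 1 (0.0471), with upper-quartile scaling (0.0483) and with a 5 CPM filter (0.0454).

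A list of 24 genes held MAP kinases, their activators and the downstream RPS6KA kinases. Of these, 8 rose and 10 fell (median -0.14), beside 23.5% and 22.8% of all tested genes. The 10 that fell became 4 with glmTreat. MAP2K3, a p38 activator, rose by 0.76 and MAP2K2, an ERK activator, by 0.65 on the log2 scale. MAP2K6, the other p38 activator, went from 25.4 and 19.6 to 11.5 and 11.7 CPM (log2 -0.95). Of 13 phosphatases and feedback inhibitors of the pathway, 3 rose and 0 fell in edgeR's test at the adjusted threshold (median 0.14). Over all tested genes 23.5% rose and 22.8% fell, so the number of the 13 that rose was near the share of all genes. Of the 13, 1 fell with library size only, with the GC and length offset and with a filter of 5 CPM. At an unadjusted p under 0.05 the number that fell was 1 (DUSP8), and DESeq2 called 0 lower. DUSP5, a nuclear ERK phosphatase, went from 208 and 189 to 458 and 450 CPM (2.29-fold, log2 1.19, adjusted p = 1.72e-10), and DUSP1, which acts on JNK and p38 as well, rose by 0.59. The third was DUSP4, at 0.22, a call lost without control 1 (adjusted p = 0.0694) or Knockdown-670 (0.0813), with library size only (0.0564) and with the GC and length offset (0.446).

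A list of 9 genes was chosen for the turnover of FOS and JUN proteins or mRNAs. Whether each of them acts on FOS or JUN in these cells was not tested. Of the 9, 1 rose and 3 fell. Their median log2 fold change was -0.095, and 23.5% of all tested genes rose and 22.8% fell. DET1, an adaptor of the ubiquitin ligase that degrades JUN, went from 18.8 and 18.4 to 8.66 and 8.51 CPM (log2 -1.12, adjusted p = 4.45e-06). Its ligase partner COP1 (listed as RFWD2) fell by 0.34, and PUM2, an RNA-binding repressor, fell by 0.20 on the log2 scale. UBE2O, a ubiquitin-conjugating enzyme, rose by 0.89, or by 0.58 with the GC and length offset. DET1 kept its call in all 15 alternatives. COP1 lost it in DESeq2 (adjusted p = 0.143) and without control 1 (0.171), Knockdown-670 (0.0652) or Knockdown-732 (0.0917). PUM2 lost it in DESeq2 (0.0801), with the GC and length offset (0.188) and without control 2 (0.116) or Knockdown-670 (0.155).

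AP-1 target genes, a list recalled from the literature and not measured as bound here, rose in 19 of 34 cases and fell in 7, with a median log2 fold change of 0.41, where 23.5% of all tested genes rose and 22.8% fell. The 7 that fell became 4 at an adjusted p of 0.01 and with glmTreat. AXL, a receptor tyrosine kinase, went from 239.8 and 268 to 704 and 728 CPM (2.82-fold, SE 0.07 on the log2 scale, adjusted p = 1.39e-11). DKK1, a secreted WNT inhibitor, fell from 315 and 321 to 113 and 123 CPM (log2 -1.43). The cyclin CCND1 and the growth factor AREG, further known targets picked with their values known, were lower at -0.48 and -0.99, so the list did not move in one direction.

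EGR1 target genes were likewise recalled from the literature with earlier results of these data known. They rose in 10 of 17 cases and fell in 3 (median 0.33), beside 23.5% and 22.8% of all tested genes. NDRG1, a growth and stress responsive gene, went from 383 and 403 to 1585 and 1397 CPM (log2 1.92), and the adhesion molecule ICAM1 rose by 1.09. HIF1A, the oxygen-regulated factor, fell by 1.14 and ID3, an inhibitor of basic helix-loop-helix factors, fell by 1.18 on the log2 scale. Many genes of both target lists answer to other factors too, and TGFB1 is on both.

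**Figure D5:**
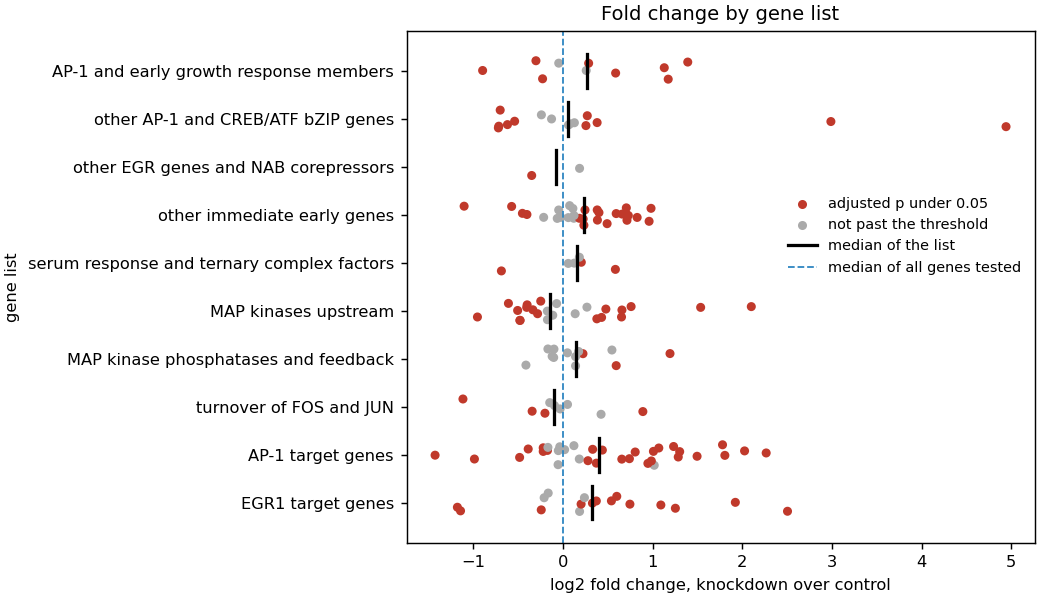
Log2 fold change of each tested gene in the 10 genes described and the 9 lists around them, with called genes in red, list medians as black bars and the median of all tested genes as a dashed line. The target lists have medians of 0.41 and 0.33 with genes far on either side, and the point near 5 is MAF, whose fitted value rests on 1 control count.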

How the data were processed

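RNA-seq of 4 A549 libraries was deposited as 1 table of raw counts per gene symbol; per the labels' protocols RNA was extracted with Trizol and read on an Ion Proton. GRCh37 is the build named in the submitters' processing notes. No aligner, counter, annotation or strand setting is named in the sources used here. No entry lacked a gene name (0) and 0 columns belonged to no sample. The deposited counts were used as they stood.

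Groups were taken from sample titles and tested in edgeR 4.0.16 under R 4.3.3 (TMM scaling, the filterByExpr filter, a robust quasi-likelihood fit and Benjamini-Hochberg adjustment over 16120 genes). Standard errors were taken as the fold change (log2) over the root of F. The mean chi-square per gene was 3.72 between controls and 3.42 between knockdown libraries, so no library repeated another. On simulated counts of 15795 genes, changes were set in 68 genes at 1.5-fold, 64 at 2-fold and 64 at 4-fold. The share called was 51.5%, 85.9% and 92.2% in the same order, and 5.70% of calls were unchanged genes. In the data 46.3% of genes were called. With so many more changes the adjusted threshold differs, so these shares do not carry over to the data.

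Gene positions, lengths and GC content come from GENCODE v29 (GRCh38, not the authors' build), joined by symbol, and promoter sequences from RefSeq (GRCh38.p14). The 10 genes and all lists were chosen with earlier results of these data known. Named by rule were the 10 genes, SBF2-AS1, the 4 called genes of smallest p in each list (all called genes in lists of under 10) and the 3 nearest patterns; a few genes that this rule takes are not reported here. No set test was run. Alternatives were other scalings, filters and tools (DESeq2 1.42.0, limma-voom 3.58.1), a stricter threshold, glmTreat, a GC and length offset and each library left out.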

Additional observations from a re-analysis of the deposited data

How the results depend on the processing

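The 5 genes that rose were called higher in every alternative except glmTreat against 1.2-fold, where IER3 was lost and 4 were left. The 3 that fell became 1, EGR1, in DESeq2, at an adjusted p of 0.01 and with glmTreat, and ranged from 1 to 3 when a library was left out. ATF3 and JUND were the genes lost. The log2 fold change of JUNB turned to 0.14 without control 2 and -0.22 without control 1, and was negative in the other alternatives. MKL1 turned to -0.11, NAB2 to -0.038 and ELK1 to -0.011 with the GC and length offset. ELK4 turned to -0.0038 with library size only, and ranged from -0.035 to 0.15 when a library was left out. The number of all genes called was 4680 with glmTreat, against 7463, and 6214 to 6749 when a library was left out. FOSB ranged from 1.17 to 1.41, FOSL1 from 1.06 to 1.19, JUN from 0.94 to 1.24, FOSL2 from 0.36 to 0.60 and EGR1 from -1.04 to -0.84 over 15 alternatives, of which the non-robust fit was chosen after seeing the data. The lists' 18 counts moved by over 1.5 times in 32 of 270 cases. When a library was left out, its group had 1 sample, assumed to vary like the other group. No paired analysis was possible because the numbers of the knockdown libraries are not those of the controls. FOS and FOSB had the fewest counts in the controls, and EGR1 had the fewest in Knockdown-670 and Knockdown-732 (99 and 117). The log2 fold change of FOS ranged from 0.13 to 0.39.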

Other observations

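Several relatives of the genes described were near the counting floor. EGR2, a relative of EGR1 with a role in nerve myelination, was counted 2 and 5 times in the controls against 15 and 10 in Knockdown-670 and Knockdown-732, and EGR3 had 3 and 1 against 6 and 4. EGR4 had 0 and 0 against 1 and 1, and BATF had no count in any library. The interstitial collagenase MMP1, a textbook AP-1 target, went from 5 and 13 counts to 14 and 28 (log2 1.30, SE 0.49, edgeR adjusted p = 0.0365, lost without control 1 at 0.295, without Knockdown-732 at 0.420 and in DESeq2 at 0.184), and the stromelysin MMP10 had 20 and 8 against 34 and 57 (log2 1.78, SE 0.39, edgeR adjusted p = 0.00129). For MMP10 the log2 fold change was 2.59 without control 1 and 1.25 without control 2, and for MMP1 it was 2.11 without control 2. MMP3 had 2 and 0 against 3 and 5, and MMP13 had at most 1 count in any library. All were picked with their values known.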
